A study of Mus musculus with 9 samples.

Results

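The genes described here are 9 members of the matrix metalloproteinase (MMP) system: the proteinase genes Mmp8, Mmp9, Mmp12, Mmp13, Mmp14 and Mmp19 and the inhibitor genes Timp1, Timp2 and Timp3. They were picked by name from 22136 genes, with their levels in all groups of this series known, so every difference between groups in these 9 genes is a description and supports nothing further. All 9 passed the filter on low counts that left 13178 genes for testing. Mmp13, Mmp19 and Timp3 passed it through the antibody groups, since the controls held 3, 5 and 0 counts of them, so their difference from the controls was partly fixed by the filter.

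RNA was sequenced in bulk from CD45+ cells, the leukocytes, sorted out of skin tumours formed by YUMM 2.1, a mouse melanoma line, in immunocompetent C57BL/6J mice. Mice received anti-B7-H3, which binds a member of the B7 proteins on cell surfaces, or anti-PD1, which binds an inhibitory receptor on T cells, or IgG as the isotype control, and each of the 3 groups has 3 libraries. Antibodies were begun once tumours measured 20 to 50 mm3, and the strain, the tumour line and the sort were common to all groups. No age, antibody dose or harvest time is stated in the labels, a combination named in the design was not analysed here, and nothing in the labels ties the replicates to separate animals, so p-values measure the spread between these samples alone, which may be technical.

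MMPs are zinc-dependent proteinases that cut collagens, elastin, gelatin and other matrix proteins, and also free or cut cytokines and receptors. They are made as inactive precursors, most of them secreted and some anchored in the membrane, and tissue inhibitors of metalloproteinases (TIMPs) block the active enzymes by binding them. In tumours, macrophages and neutrophils are known sources of several MMPs, alongside fibroblasts and tumour cells.

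The libraries held 14487012 to 31533106 estimated counts. IgG control 2 had 1896 of the 13178 tested genes at 0 counts and anti-PD1 3 had 1248, against 822 in IgG control 3 and 224 to 308 in each of the other 6. Ptprc, which encodes CD45, lay between 1718.5 and 2348.0 CPM after anti-B7-H3, 1821.1 and 2410.9 after anti-PD1 and 1871.1 and 2913.0 in the controls, CPM being counts per 1000000 counts of the library total after TMM scaling.

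Of the 9 members, 3 lie in 1 cluster on chromosome 9, from 7272514 to 7699585 on GRCm38, which spans 427.1 kb and holds 10 Mmp genes. Mmp13 occupies 7272514 to 7283331, Mmp12 7344381 to 7369499 and Mmp8 7558456 to 7568485, all on the plus strand. The other 6 are spread over the genome. Mmp9 lies on chromosome 2 (164940780 to 164955850), Mmp14 on chromosome 14 (54431612 to 54445364) and Mmp19 on chromosome 10 (128790910 to 128800824). Timp1 lies on chromosome X (20870166 to 20874735), Timp2 on chromosome 11 (118301069 to 118355740, minus strand) and Timp3 on chromosome 10 (86300372 to 86349506). The kits used keep no record of strand. Timp1 overlaps Syn1, Timp3 overlaps Syn3, and Mmp19 overlaps Tmem198b and Gm47093, each on opposite strands. These overlaps are of whole gene spans, introns included, and shared coding bases were not looked for. Reads of such pairs cannot be told apart by strand where they share counted bases. Timp2 and Cep295nl overlap on the same strand, where a record of strand would not separate them. Mmp12 overlaps Mmp1b, which had 0 counts in all 9 libraries.

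Promoters are shown for 4 members, chosen as a contrast: Mmp13 and Mmp12, whose levels were far above the controls, Timp1, the inhibitor gene that was also far above them, and Timp2, the inhibitor gene that was not above them. The Timp2 levels of the anti-B7-H3 libraries lay somewhat below both other groups. Each line holds the 150 bases before the start on the gene's own strand, from RefSeq on GRCm38.p6. Capitals mark matches, on either strand, to the AP-1 motif TGANTCA, to AGGAAG as a core of sites of the ETS family, to the TATA box TATAAA and to the GC box GGGCGG. No 2 matches overlap in the printed bases, and the Timp1 GC box is on the other strand.
Mmp13 chr9:7272364-7272513 (+): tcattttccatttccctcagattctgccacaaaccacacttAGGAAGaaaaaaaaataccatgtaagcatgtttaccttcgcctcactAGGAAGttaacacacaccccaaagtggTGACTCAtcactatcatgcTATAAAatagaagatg
Mmp12 chr9:7347224-7347373 (+): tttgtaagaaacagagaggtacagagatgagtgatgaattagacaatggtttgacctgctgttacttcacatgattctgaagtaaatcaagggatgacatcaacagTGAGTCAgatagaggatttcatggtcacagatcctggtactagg
Timp1 chrX:20870016-20870165 (+): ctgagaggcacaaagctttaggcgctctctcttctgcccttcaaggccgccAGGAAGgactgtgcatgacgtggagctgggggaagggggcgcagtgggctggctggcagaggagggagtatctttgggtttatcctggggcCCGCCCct
Timp2 chr11:118355412-118355561 (-): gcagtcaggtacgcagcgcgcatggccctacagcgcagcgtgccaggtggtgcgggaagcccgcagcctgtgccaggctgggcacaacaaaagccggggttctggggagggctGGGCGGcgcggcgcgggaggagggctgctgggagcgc

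The Mmp13 window held an AP-1 motif with its first base at -35, ETS cores at -109 and at -62, and a TATA box at -16. The Mmp12 window shown, at the start of the transcript that took most of its counts, held an AP-1 motif at -44 and none of the other 3. The second Mmp12 window, before 7344397, held an ETS core at -87 and no AP-1 motif. The Timp1 window held ETS cores at -99 and at -175, the second outside the printed bases, and a GC box at -8, and that of Timp2 held a single GC box at -37. Within 250 bases before the start, 6.7% of 32851 RefSeq promoters held the AP-1 motif, 29.5% the ETS core, 12.4% the TATA box and 32.7% the GC box. Of the 9 members, 7 had entries, with 8 windows in all, and the AP-1 motif occurred in 2 of those windows, both printed here. The windows of Mmp8 and Mmp14, whose treated libraries also all lay above the controls, held no AP-1 motif. These are matches of letters, and no binding was measured.

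Mmp12, macrophage elastase, was the most abundant MMP gene. It had 196.8, 160.8 and 235.0 CPM in the anti-B7-H3 libraries, 274.7, 260.3 and 201.9 CPM in the anti-PD1 libraries and 30.5, 47.0 and 13.4 CPM in the IgG controls. Every antibody-treated library lay above every control library, and the treated groups overlapped each other. The log2 difference was 2.71 ± 0.39 (SE) for anti-B7-H3 and 3.02 ± 0.39 for anti-PD1 against IgG, and -0.31 ± 0.36 for anti-B7-H3 against anti-PD1. IgG control 2 was the highest control for Mmp12, and leaving it out gave 3.18 and 3.51, whereas leaving out IgG control 3, the lowest, gave 2.35 and 2.66.

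The Mmp12 transcript that starts at 7347374 took 88.7% or more of the gene's counts in each library. A second, starting at 7344397, was given 202.4 counts in anti-B7-H3 2 and 810.1 in anti-B7-H3 3, up to 10.6% of the gene, and none in the other 7 libraries. All of its 1209 coding bases also lie in the first transcript, so this split rests on no sequence of its own.

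The collagenase genes Mmp8 and Mmp13 both lay above the controls. Mmp13, collagenase 3, had 6.68, 7.34 and 11 CPM after anti-B7-H3 and 9.31, 14.2 and 7.81 CPM after anti-PD1, against 0.15, 0 and 0 CPM in the controls. The controls together held 3 counts of Mmp13, all in IgG control 1, and no treated library overlapped them. Against that count, the ratio of pooled CPM was 162.6 for anti-B7-H3 (95% counting interval 55.4 to 790.5) and 193.8 for anti-PD1 (66.1 to 941.8). Mmp8, neutrophil collagenase, had 24.0, 15.4 and 16.2 CPM after anti-B7-H3, 17.8, 17.3 and 13.4 CPM after anti-PD1 and 4.66, 0 and 2.54 CPM in the controls. All treated libraries again exceeded all controls. The log2 difference was 2.94 ± 1.03 for anti-B7-H3 and 2.74 ± 1.02 for anti-PD1 against IgG, with 3 control libraries that differed widely. Without IgG control 2, where Mmp8 was at 0, they were 2.37 and 2.18, and without IgG control 1, the highest control, 3.87 and 3.68.

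Mmp9, gelatinase B, which cuts denatured collagen and basement membrane collagen, had 32.8, 59.0 and 79.4 CPM after anti-B7-H3, 156.0, 66.5 and 63.9 CPM after anti-PD1 and 26.2, 5.63 and 19.5 CPM in the controls. The lowest treated library stood only a little above the highest control, and anti-PD1 1 stood far above the rest. The log2 difference from IgG was 1.74 ± 0.57 for anti-B7-H3 and 2.48 ± 0.59 for anti-PD1. It was 1.34 and 2.09 without IgG control 2, the lowest control, and 2.22 and 2.96 without IgG control 1, the highest. Without anti-PD1 1 it was 1.93 for anti-PD1.

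Mmp14 encodes MT1-MMP, a membrane-anchored enzyme that cuts collagen and activates the precursor of MMP2. It had 38.4, 41.0 and 46.3 CPM after anti-B7-H3, 59.5, 36.4 and 36.8 CPM after anti-PD1 and 8.47, 0.124 and 17.3 CPM in the controls. The groups did not overlap the controls, though the controls spread widely. The log2 difference from IgG was 2.28 ± 1.04 for anti-B7-H3 and 2.36 ± 1.04 for anti-PD1. Without IgG control 2, the lowest control, it was 1.73 and 1.81, and without IgG control 3, the highest, 3.27 and 3.35. Mmp2 itself, a gelatinase, had 68 counts over the anti-B7-H3 libraries, 46 over the anti-PD1 libraries and 0 over the controls. Of these, 60 were in anti-B7-H3 3 and 45 in anti-PD1 2, and both treated groups overlapped the controls.

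Mmp19, a secreted MMP that cuts basement membrane proteins, had 3.56, 4.34 and 4.90 CPM after anti-B7-H3, 16.7, 12.7 and 3.88 CPM after anti-PD1 and 0.251, 0 and 0 CPM in the controls. The treated libraries all lay above the controls, and anti-PD1 3 lay among the anti-B7-H3 libraries. The log2 difference from IgG was 5.54 ± 1.22 for anti-B7-H3 and 6.91 ± 1.29 for anti-PD1. It rests on 5 control counts, all in IgG control 1. Without that library the controls held 0 counts, and the fitted differences of 9.68 and 11.06 are then no bound. Tmem198b, which overlaps it, had 3.78 to 5.43 CPM after anti-B7-H3, 0.888 to 5.51 CPM after anti-PD1 and 0.124 to 2.49 CPM in the controls.

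**Figure D1:**
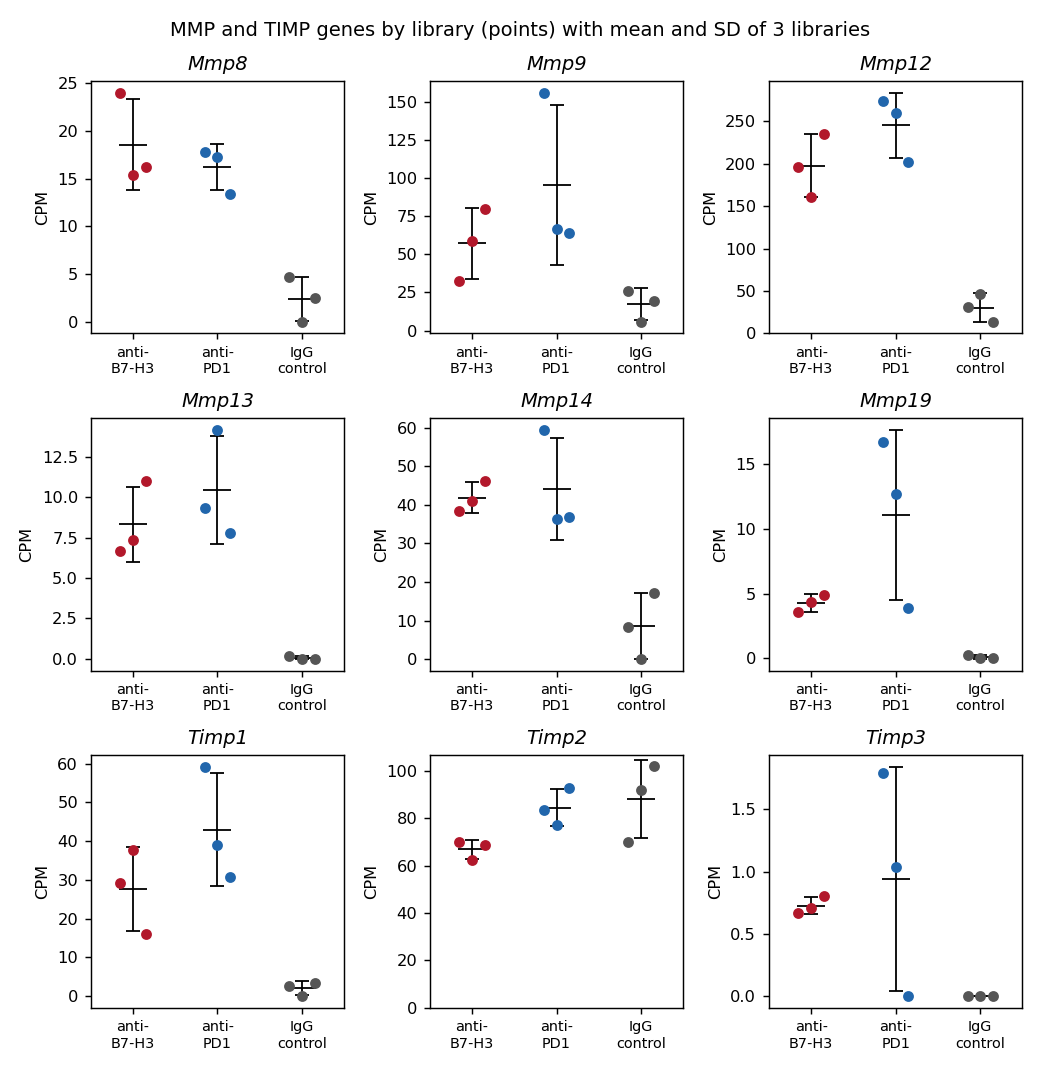
CPM of each of the 9 genes (linear vertical axes) in the anti-B7-H3, anti-PD1 and IgG control libraries; points are libraries, and horizontal marks and bars are the mean and SD of 3. In Mmp12 the treated libraries sit between 160.8 and 274.7 CPM and the controls between 13.4 and 47.0, whereas in Timp2 the groups lie close together.

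The inhibitor genes split. Timp1, which inhibits most secreted MMPs, had 29.1, 37.8 and 16.1 CPM after anti-B7-H3, 59.2, 39.0 and 30.8 CPM after anti-PD1 and 2.66, 0 and 3.53 CPM in the controls. Every treated library lay above every control. The log2 difference was 3.73 ± 1.02 for anti-B7-H3 and 4.37 ± 1.05 for anti-PD1. Without IgG control 2, where Timp1 was at 0, it was 3.18 and 3.83, and without IgG control 3, the highest control, 4.34 and 4.98. Syn1, on the other strand, reached 2.97, 8.27 and 2.39 CPM at most in the anti-B7-H3, anti-PD1 and control groups.

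Timp2, which both inhibits MMPs and takes part with MT1-MMP in activating the MMP2 precursor, did not follow. It had 69.8, 62.2 and 68.6 CPM after anti-B7-H3, 83.4, 77.1 and 92.9 CPM after anti-PD1 and 70.0, 92.0 and 102.1 CPM in the controls. The anti-B7-H3 libraries lay below both other groups without overlap, the nearest libraries being anti-B7-H3 1 at 69.8 CPM and IgG control 1 at 70.0 CPM, and anti-PD1 overlapped the controls. The log2 difference from IgG was -0.40 ± 0.20 for anti-B7-H3 and -0.06 ± 0.20 for anti-PD1, and -0.34 ± 0.20 for anti-B7-H3 against anti-PD1. For anti-PD1 against IgG it ran between -0.17 and 0.06 over 16 alternative settings and so changed sign.

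Timp3, a matrix-bound inhibitor that also blocks ADAM17, was barely detected. It had 9, 21 and 26 counts after anti-B7-H3, 52, 28 and 0 counts after anti-PD1 and 0 counts in every control. Against a floor of 3 counts over the control group, it was at least 13.7-fold higher after anti-B7-H3 and at least 18.4-fold higher after anti-PD1, where anti-PD1 3 overlapped the controls. Syn3, which overlaps it, had 0.0337 to 0.148 CPM after anti-B7-H3, where Timp3 had 0.668 to 0.802 CPM. After anti-PD1 the level of Syn3 was 0 to 2.0 CPM, as high as that of Timp3, at 0 to 1.79 CPM. In the controls Syn3 had 0 to 0.201 CPM.

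**Figure D2:**
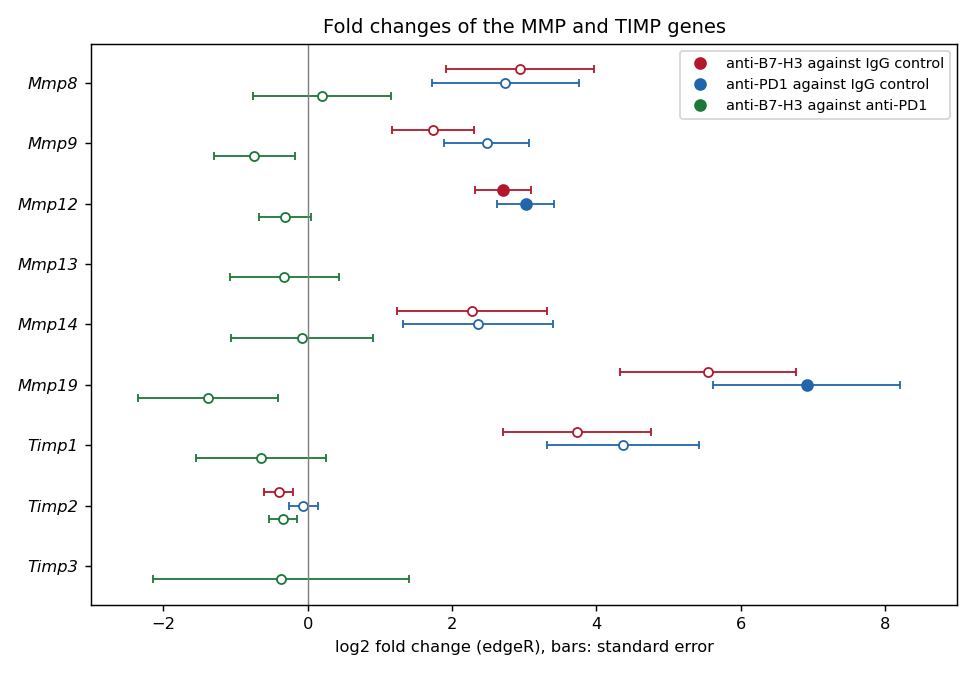
Log2 fold changes from edgeR (horizontal axis, bars are SE) for anti-B7-H3 against IgG control, anti-PD1 against IgG control and anti-B7-H3 against anti-PD1, with filled points past the adjusted threshold. Timp2 sits near 0, from -0.40 to -0.06, and Mmp13 and Timp3 have no point against the controls because 3 or fewer counts were found there.

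Across the 9 members, the median log2 difference was 2.94 for anti-B7-H3 and 3.02 for anti-PD1 against IgG, where the median of all tested genes was 0.02 and -0.04. For anti-B7-H3 against IgG, 2 of 9 passed edgeR's quasi-likelihood test at an adjusted p of 0.05 (Mmp12 and Mmp13), against 0.85% of all tested genes. Both were higher, as were 0.827% of all tested genes, whereas 0.0228% were called lower. By the libraries alone, 8 of 9 were higher without overlap, against 9.96% of all, and Timp2 was lower without overlap, against 5.49% of all. For anti-PD1 against IgG, 3 of 9 passed (Mmp12, Mmp13 and Mmp19), against 1.74% of all tested genes. All were higher, as were 1.72% of all tested genes, whereas 0.0152% were called lower. By the libraries alone, 7 of 9 were higher without overlap, against 9.99% of all, and 0 were lower, against 6.52% of all. Both comparisons use the same 3 controls, and the genes were chosen on them, so nothing is read from these counts. Without IgG control 2 and anti-PD1 3 together, 5 of 9 passed in each comparison, against 143 and 234 of 13901 tested genes. With IgG control 2 alone left out, 4 passed for anti-B7-H3 and 6 for anti-PD1, against 144 and 262 of 13949 tested genes. Mmp19 no longer passed for anti-PD1 without IgG control 3, anti-PD1 1 or anti-PD1 2. Using the 6 libraries of a comparison only, none passed for anti-B7-H3 by edgeR, and Mmp12 and Mmp13 passed for anti-PD1. Over all tested genes, 44 of 12384 and 136 of 12336 passed in that setting. In the fit of all 9 libraries, 7 of 9 had an unadjusted p under 0.05 in each comparison, against 8.81% and 10.9% of all tested genes. By DESeq2, 6 of 9 passed in each, against 394 and 660 of 13178 tested genes. For anti-B7-H3 against anti-PD1, none of the 9 passed by edgeR or by DESeq2, and 0.0% of all tested genes passed by edgeR. None had an unadjusted p under 0.05, against 3.23% of all. Timp2 was lower without overlap, against 6.4% of all, and 0 were higher, against 7.13% of all, and the median of the 9 was -0.34.

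Because TPM values are per length, they allow levels to be compared between genes. Among the members, Mmp12 led at 88.5 ± 31.4 TPM (SD, n = 3) after anti-B7-H3 and 111.6 ± 18.1 TPM after anti-PD1, followed by Timp2 at 70.5 ± 14.4 TPM after anti-B7-H3 and 89.3 ± 9.83 TPM after anti-PD1, whose ranges overlapped those of Mmp12. In the controls the order was reversed without overlap, with Timp2 at 96.9 ± 11 TPM and Mmp12 at 17.7 ± 12.6 TPM. Timp1 came next in both treated groups, below Timp2 without overlap, at 31.9 ± 14.4 TPM after anti-B7-H3 and 49.6 ± 17.8 TPM after anti-PD1. In the controls it had 2.38 ± 2.06 TPM, below Mmp9 at 4.6 ± 3.23 TPM and Mmp14 at 2.70 ± 2.41 TPM, whose ranges overlapped. Mmp14 had 19.0 ± 2.90 TPM after anti-B7-H3 and 15.7 ± 4.50 TPM after anti-PD1, and Mmp9 14.7 ± 7.93 TPM after anti-B7-H3 and 24.9 ± 11.3 TPM after anti-PD1, so their order differed between the treated groups, with overlapping ranges. By mean CPM, which takes no account of length, Mmp9 lay above Mmp14 in both treated groups. Libraries were not ordered alike by CPM and TPM: anti-B7-H3 3 had the highest Mmp14 CPM of its group (46.3) and the lowest TPM (16.8). Mmp8 followed at 7.38 ± 0.578 TPM after anti-B7-H3, 6.60 ± 0.794 TPM after anti-PD1 and 1.08 ± 1.18 TPM in the controls. Mmp13 and Mmp19 were low in all groups, at most 5.60 and 5.83 TPM.

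The summed level of the 6 MMP genes was set against that of the 3 TIMP genes. The ratio of summed TPM was 1.24, 1.03 and 1.66 in the anti-B7-H3 libraries, 1.21, 1.35 and 1.03 in the anti-PD1 libraries and 0.321, 0.306 and 0.166 in the controls. Treated libraries were all above 1 and all controls were well below it, with means of 1.31 ± 0.321 after anti-B7-H3, 1.20 ± 0.160 after anti-PD1 and 0.264 ± 0.0855 in the controls (SD, n = 3 each). The MMP sum averaged 134.7 ± 39.4, 166.9 ± 30.0 and 26.2 ± 8.67 TPM in the anti-B7-H3, anti-PD1 and control groups. The TIMP sum averaged 103.2 ± 20.2 TPM after anti-B7-H3, 139.9 ± 21 TPM after anti-PD1 and 99.3 ± 9.20 TPM in the controls. Mmp12 made up 60.4% to 73.2% of the MMP sum in the treated libraries and 52.0%, 95.0% and 40.6% in the controls. The 95.0% was in IgG control 2, where the other MMP genes summed to 1.66 TPM, and the other 2 controls lay below every treated library. Timp1 made up 20.5% to 42.5% of the TIMP sum in the treated libraries, and at most 4.0% in the controls. Summed levels of RNA say nothing of enzyme activity, which was not measured.

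**Figure D3:**
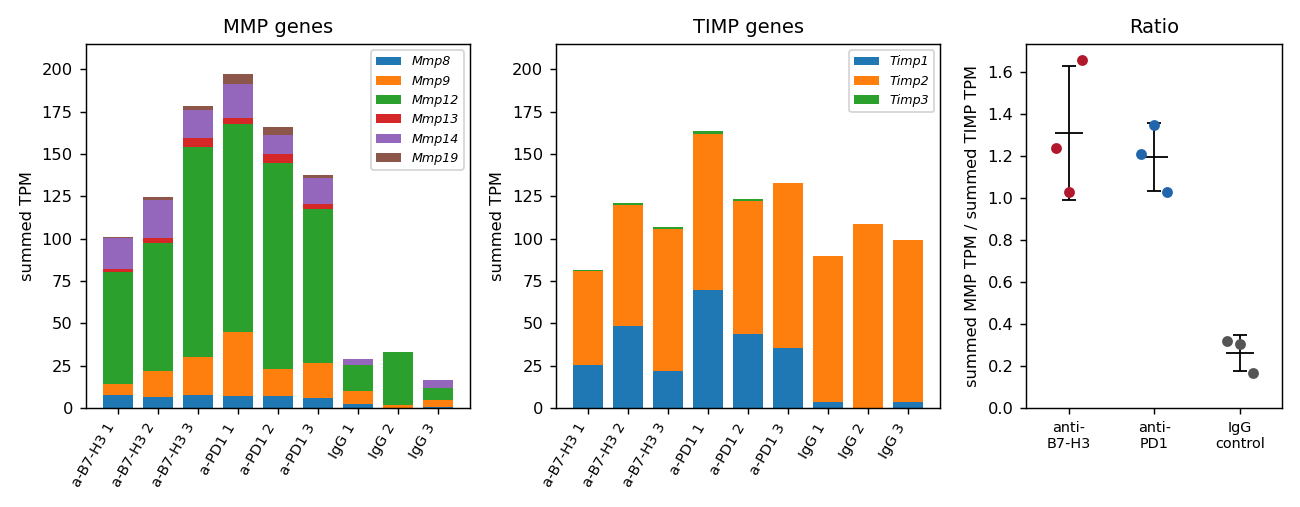
Summed TPM of the MMP genes and of the TIMP genes in each library (stacked bars from 0, a- standing for anti-), and the ratio of the 2 sums with points for libraries and mean and SD of 3. The ratio lies from 1.03 to 1.66 in treated libraries and from 0.166 to 0.321 in the controls.

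Markers of the leukocytes known to make these enzymes were higher too. In bulk RNA, more cells of a type and more RNA per cell cannot be told apart. Of 12 macrophage markers, 8 rose in each comparison with IgG (higher calls made up 0.827% and 1.72% of all tested genes), with median log2 differences of 3.35 for anti-B7-H3 and 3.39 for anti-PD1, and none of the 12 was at 0 in any group. Their summed level ran from 1753.0 to 2713.1 CPM after anti-B7-H3, 1298.7 to 1925.7 CPM after anti-PD1 and 122.6 to 314.0 CPM in the controls. Lyz2, lysozyme, rose by 3.10 ± 0.40 after anti-B7-H3 and 2.58 ± 0.39 after anti-PD1 on the log2 scale (edgeR adjusted p = 0.0051 and 0.00726). It averaged 1050.4 CPM of a mean sum of 2085.9 after anti-B7-H3, 728.4 of 1715.0 after anti-PD1 and 122.2 of 241.6 in the controls. Values set against this sum therefore rest largely on Lyz2. Of 9 tested neutrophil markers, 4 rose after anti-B7-H3 and 5 after anti-PD1, with medians of 1.93 and 2.80. The 12 listed summed to 296.7 to 473.0 CPM after anti-B7-H3, 705.8 to 952.9 CPM after anti-PD1, where Mpo and Camp were at 0, and 74.6 to 122.6 CPM in the controls. S100a9, a calprotectin subunit, rose by 1.93 ± 0.26 after anti-B7-H3 and 3.28 ± 0.27 after anti-PD1 (edgeR adjusted p = 0.00615 and 0.000465). Of 10 T cell markers, 0 passed in each comparison by edgeR and by DESeq2, with 2 and 1 at an unadjusted p under 0.05, all lower, and medians of -0.29 and -0.42. They summed to 4503.3 to 6578.2 CPM after anti-B7-H3, 4651.5 to 5826.6 CPM after anti-PD1 and 5794.2 to 7883.9 CPM in the controls. The part of these cell types in the MMP values was not tested.

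Set against the summed macrophage markers of the same library, members behaved differently. Mmp8 had 8.83, 8.78 and 9.07 CPM per 1000 CPM of the markers after anti-B7-H3, 9.22, 8.99 and 10.3 after anti-PD1 and 16.2, 0 and 8.10 in the controls. The treated libraries were nearly alike on this scale and lay within the range of the controls. The same overlap held for Mmp12, with 72.5 to 131.2 per 1000 CPM of the markers after anti-B7-H3, 135.6 to 155.4 after anti-PD1 and 42.6 to 383.8 in the controls, and for Mmp14, with 14.2 to 25.9 after anti-B7-H3, 19.0 to 30.9 after anti-PD1 and 1.01 to 55.0 in the controls. The overlap of anti-PD1 for Mmp12 rests on IgG control 2, at 383.8, as does that of anti-B7-H3 for Mmp14, at 1.01. Without that library, every anti-PD1 library lay above the controls for Mmp12, at 105.7 and 42.6, and every anti-B7-H3 library lay below them for Mmp14, at 29.4 and 55.0. Anti-B7-H3 for Mmp12 and anti-PD1 for Mmp14 still overlapped the controls. Mmp9 had 12.1 to 44.3 after anti-B7-H3, below the 46.0 to 90.9 of the controls, and 34.6 to 81.0 after anti-PD1, which overlapped them. Timp1 had 9.0 to 21.6 after anti-B7-H3, overlapping 0 to 11.2 in the controls, and 20.3 to 30.7 after anti-PD1, above them. Mmp13 had 2.46 to 6.16 after anti-B7-H3 and 4.83 to 7.38 after anti-PD1, above 0 to 0.522 in the controls. Mmp19 had 1.31 to 2.74 after anti-B7-H3 and 2.99 to 8.69 after anti-PD1, above 0 to 0.869 in the controls. Both passed the filter through the antibody groups, with 3 and 5 control counts, so these differences were partly fixed by it. In IgG control 2 the markers summed to 122.6 CPM and 3 counts stood for 0.186 CPM. Its 0 counts therefore do not place Mmp19 below the lowest treated library. Timp2 ran the other way, at 25.7 to 38.3 after anti-B7-H3, 40.2 to 71.5 after anti-PD1 and 242.9 to 750.5 in the controls. On the summed neutrophil markers instead, Mmp8 had 34.7 to 51.9 after anti-B7-H3 and 18.1 to 23.3 after anti-PD1. The treated groups did not overlap each other there, and both lay within the range of the controls (0 to 62.5). Mmp9 after anti-B7-H3 (69.3 to 199.0) overlapped the controls (45.9 to 351.2) on that scale. Timp1 after anti-PD1 (40.9 to 77.6) also overlapped them there (0 to 42.7). Mmp12 after anti-B7-H3 (416.1 to 542.1) lay above the controls on that scale (162.0 to 408.3). Mmp13 and Mmp19 again lay above the controls in both treated groups, with the same limit from the filter, and Timp2 below.

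**Figure D4:**
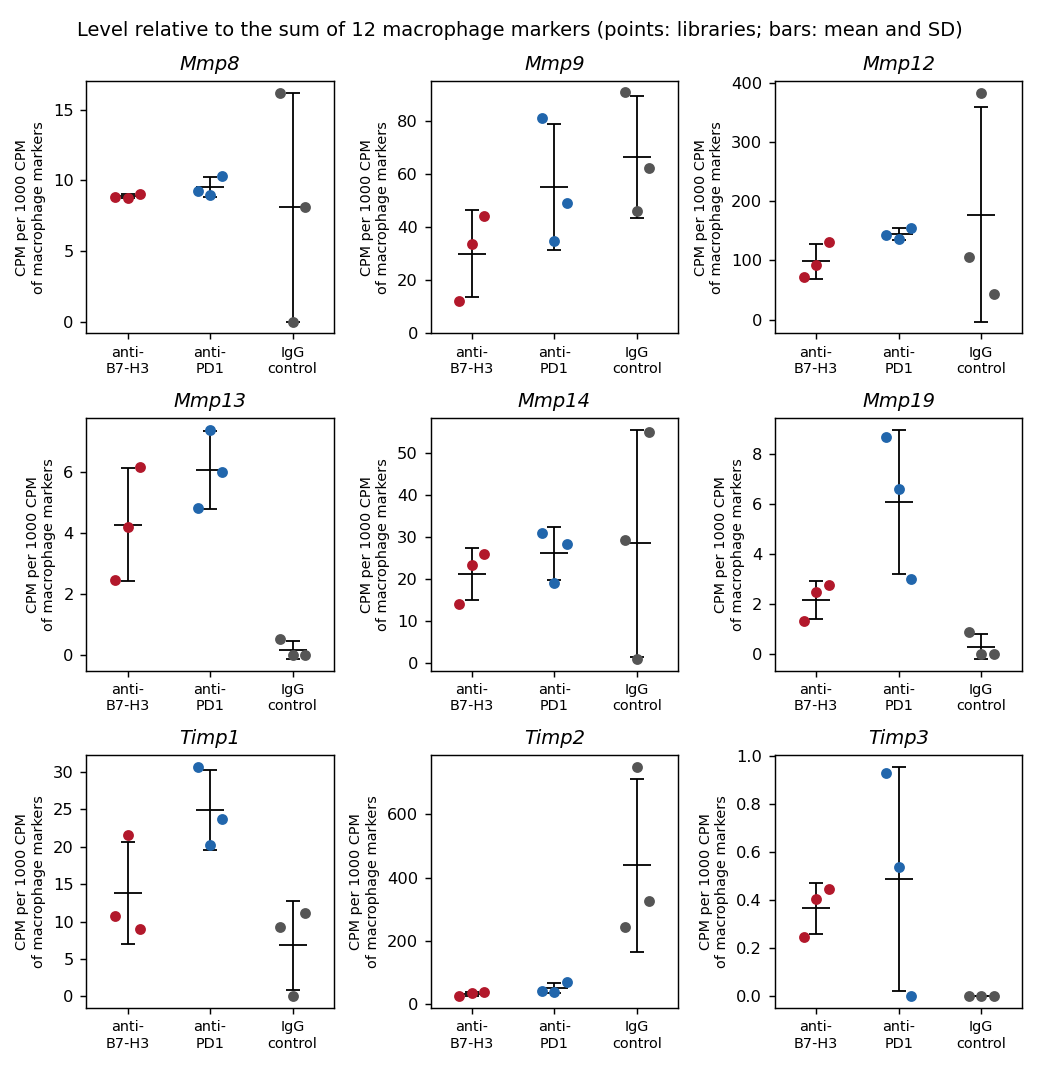
CPM of each member per 1000 CPM of the 12 macrophage markers summed in the same library (linear axes); points are libraries, with mean and SD of 3. Mmp8 sits at 8.78 to 10.3 in the treated libraries inside the control range of 0 to 16.2, whereas Timp2 is highest in the controls.

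Cells that a CD45 sort should remove left a small signal. The summed level of 11 fibroblast markers was 14.0 to 20.9 CPM after anti-B7-H3, 23.1 to 39.9 CPM after anti-PD1 and 0.619 to 2.26 CPM in the controls. Fap was at 0 in the anti-B7-H3 group, Dcn, Pdgfra and Fap in the anti-PD1 group and Dcn, Pdgfrb and Col5a1 in the controls. Of the 6 tested, with medians of 3.19 for anti-B7-H3 and 3.58 for anti-PD1, 0 passed by edgeR in each comparison with IgG, 2 had an unadjusted p under 0.05 and 2 passed by DESeq2. Melanoma markers summed to 6.78 to 9.83 CPM after anti-B7-H3, 2.09 to 16.4 CPM after anti-PD1 and 2.31 to 12.1 CPM in the controls, with Dct at 0 in every group. Of the 4 tested, with medians of 2.75 and 3.23, 0 passed by edgeR, 1 had an unadjusted p under 0.05 in each comparison, and 0 and 1 passed by DESeq2. Endothelial markers summed to 0.493 to 8.24 CPM after anti-B7-H3, 0.859 to 2.29 CPM after anti-PD1 and 0.0619 to 1.90 CPM in the controls, and the 2 tested had medians of 1.83 and -1.26. Emcn was at 0 in every group. Cldn5 and Esam were also at 0 in the anti-PD1 group, and Cdh5, Tie1, Cldn5 and Robo4 in the controls. Keratinocyte markers summed to 12.1 to 13.3 CPM after anti-B7-H3, 15.1 to 18.2 CPM after anti-PD1 and 8.67 to 22 CPM in the controls, and the 3 tested had medians of -0.07 and 0.15. Most of that sum was Sfn, at a mean of 10.2 CPM after anti-B7-H3, 14.2 after anti-PD1 and 12.9 in the controls. Krt14, Krt1, Trp63 and Dsg3 were at 0 in the anti-PD1 group, and Krt5, Krt14, Krt15 and Trp63 in the controls. In neither list did any gene pass by edgeR or DESeq2 against IgG or have an unadjusted p under 0.05. The fibroblast sum was above the controls in every treated library, and its part in the values of the 9 members was not tested.

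The rest of the MMP and TIMP family was mostly near absent. Of 18 other genes, 7 were tested, with medians of -0.14 for anti-B7-H3 and 0.75 for anti-PD1. None passed against IgG by edgeR (1 at an unadjusted p under 0.05 in each comparison, and 0 and 1 by DESeq2), and the highest level was 4.70 TPM, of Mmp11. Mmp1b and Mmp7 had 0 counts in all libraries. Mmp25, a membrane-bound MMP of neutrophils, had 4.08, 6.63 and 5.46 CPM after anti-B7-H3, 7.52, 11.5 and 14.8 CPM after anti-PD1 and 2.31, 2.97 and 1.40 CPM in the controls. The 3 groups did not overlap, yet its log2 differences of 1.28 ± 0.56 after anti-B7-H3 and 2.34 ± 0.58 after anti-PD1 missed the threshold (edgeR adjusted p = 0.549 and 0.0831). Mmp16, a membrane-type MMP, had 71 counts after anti-B7-H3, 0 after anti-PD1 and 3 in the controls, a ratio of 17.3 for anti-B7-H3 against IgG (95% counting interval 5.7 to 86.1). It did not pass for anti-B7-H3 against anti-PD1 (edgeR adjusted p = 1.0).

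Other proteases and regulators of MMPs were listed as well. Among 12 tested cathepsins and neutrophil serine proteases, 3 rose after anti-B7-H3 and 4 after anti-PD1 (Ctsh, Ctsc and Ctsl in both, and Ctsz), with medians of 0.93 and 0.84. The lysosomal cathepsin Ctsl rose by 2.03 ± 0.38 after anti-B7-H3 and 2.54 ± 0.38 after anti-PD1 (edgeR adjusted p = 0.0318 and 0.00689), and Ctsh by 1.87 ± 0.26 after anti-B7-H3 and 1.76 ± 0.26 after anti-PD1 (edgeR adjusted p = 0.0066 and 0.00608). Ctsc, which activates neutrophil serine proteases, rose by 1.06 ± 0.19 after anti-B7-H3 and 1.03 ± 0.19 after anti-PD1. Of 14 tested ADAM and ADAMTS proteases, Adam8, a membrane protease of myeloid cells, alone passed the test (medians of the list 1.26 and 0.84), at 1.23 ± 0.24 after anti-B7-H3 and 1.66 ± 0.24 after anti-PD1 (edgeR adjusted p = 0.0409 and 0.00599). Of 14 tested activators and other regulators, 0 passed by edgeR, though their medians were 2.79 for anti-B7-H3 and 3.66 for anti-PD1. Of them, 8 and 11 were higher and 1 and 0 lower at an unadjusted p under 0.05, and 6 and 8 passed by DESeq2, all higher. They include Lcn2, whose protein binds MMP-9, with log2 differences of 2.96 ± 1.00 after anti-B7-H3 and 4.07 ± 1.05 after anti-PD1, and Lrp1, a receptor that clears MMPs, with 2.67 ± 0.70 after anti-B7-H3 and 2.81 ± 0.70 after anti-PD1. Of 21 tested matrix substrates, with medians of 3.20 and 3.42, 0 passed after anti-B7-H3 by edgeR (9 at an unadjusted p under 0.05, and 7 by DESeq2) and 1 after anti-PD1. That gene was Col4a2, a chain of collagen IV, with 578 counts after anti-PD1 against 1 in the controls, a ratio of 399.6 (95% counting interval 71.4 to 15811.7; edgeR adjusted p = 0.0212). Without IgG control 2 and anti-PD1 3 together, 2 regulators passed after anti-B7-H3 and 4 after anti-PD1, and 2 and 3 substrates. In that setting no ADAM or ADAMTS gene passed after anti-B7-H3, and 2 cathepsins did.

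Factors known to act at MMP promoters, and cytokines known to induce MMPs, rose in part. Of 18 transcription factor genes, 4 rose after anti-B7-H3 (Spi1, Fos, Jun and Cebpb) and 6 after anti-PD1 (Spi1, Fos, Fosl2, Junb, Ets2 and Cebpb), with medians of 0.84 and 1.21. Fos, a part of AP-1, rose by 1.45 ± 0.20 after anti-B7-H3 and 1.35 ± 0.20 after anti-PD1 (edgeR adjusted p = 0.00646 and 0.00608), and Cebpb, a factor of myeloid cells, by 2.22 ± 0.27 after anti-B7-H3 and 2.79 ± 0.27 after anti-PD1 (edgeR adjusted p = 0.00383 and 0.000645). Of 16 cytokine genes, 3 rose after anti-B7-H3 (Vegfa, Il1b and Osm) and 4 after anti-PD1, where Il1a joined them, with medians of 0.88 and 1.46. Il1b, a cytokine that induces several MMPs, averaged 385.7 ± 110.0 CPM after anti-B7-H3, 979.8 ± 157.4 CPM after anti-PD1 and 30.2 ± 21.1 CPM in the controls (SD, n = 3 each; edgeR adjusted p = 0.0256 and 0.00531). Osm, oncostatin M, which induces Timp1 in many cells, rose by 2.19 ± 0.27 after anti-B7-H3 and 2.70 ± 0.28 after anti-PD1 (edgeR adjusted p = 0.0043 and 0.000865). For anti-B7-H3 against anti-PD1, no gene of any list passed by edgeR. By DESeq2 1 did, a neutrophil marker that was lower after anti-B7-H3, and at most 6 genes of a list, the cytokines, all lower, had an unadjusted p under 0.05.

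**Figure D5:**
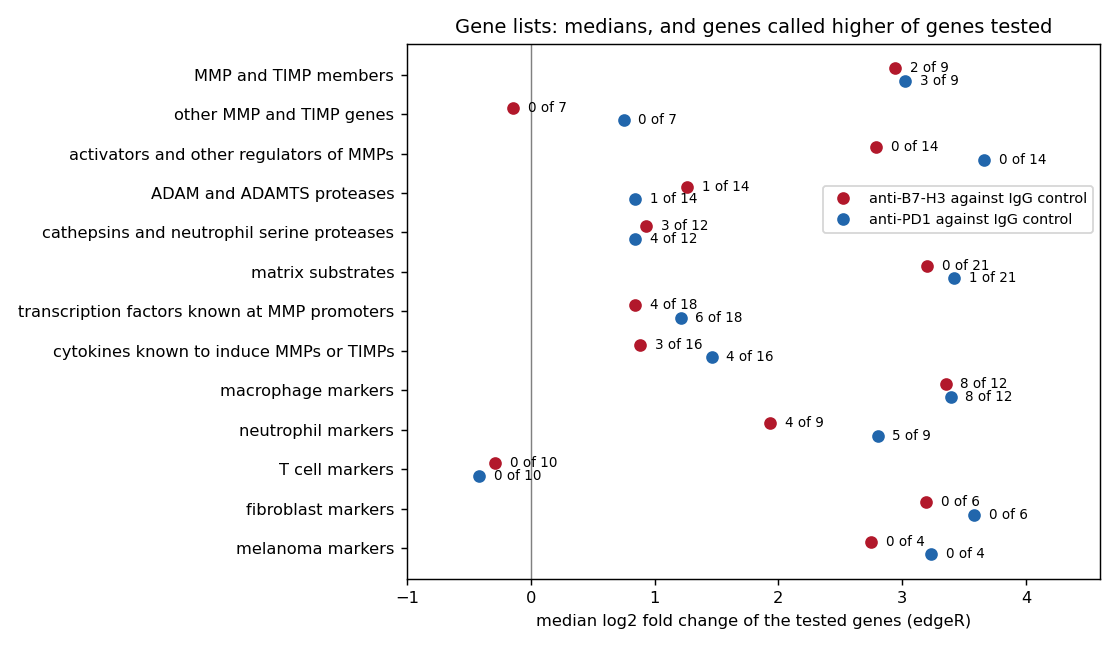
Median log2 fold change of the tested genes of each list (horizontal axis) for anti-B7-H3 and anti-PD1 against IgG control, with the number of genes called higher of those tested printed beside each point. The endothelial and keratinocyte markers are not drawn. Macrophage markers stand at 3.35 and 3.39 with 8 of 12 called, and T cell markers at -0.29 and -0.42 with 0 of 10.

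The genes whose profiles over the 9 libraries lay closest to each member were found by the root mean squared difference of log2 CPM after centring each gene. Mmp8 was closest to Clec4a3 and Fcgr1, at 0.23 and 0.33, and Mmp12 to Plk2 and Pirb, at 0.25 and 0.37. Mmp14 was closest to Mefv and Tlr13, at 0.30 and 0.34, Timp1 to C3ar1 and Anxa3, at 0.45 and 0.47, and Mmp9 to Gcnt2 and Nuak2, at 0.44 and 0.48. Mmp13 was closest to another member, Mmp19, at 0.66, and then to Cd300ld, at 0.68. The closest genes to Mmp19 were Serpinh1 and Trem3, both at 0.63, and those to Timp3 were Amer2 and Lgr6, at 0.40 and 0.47. Timp2 stood apart from the other members in its company too, with Rab2a and Tnfrsf25, both at 0.11. These distances are a description over libraries that share depth and groups.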

How the data were processed

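Per the file headers, each deposited file gives an estimated count and a TPM value for 58083 transcripts of 1 library. The deposited TPM values are per effective length and have the same sum in each library, and 87.3% of lengths are multiples of 3, so lengths are coding lengths. Per the labels' protocols, RNA was amplified with SMART-Seq v4, depleted of ribosomal RNA and made into Nextera XT libraries, which do not mark the strand. Per the submitters' processing notes, the build was GRCm38 and FastQC 0.11.8 was used, and the quantifier is not given in the sources used here. The deposited expected counts were summed over GENCODE M21 genes (57409 transcripts matched, 674 not) and rounded to whole numbers. All 9 libraries entered 1 edgeR 4.0.16 quasi-likelihood fit in R 4.3.3 (TMM, filterByExpr, robust, 1 mean per group), with Benjamini-Hochberg adjustment over 13178 genes at 0.05, tested on simulated data. Floors of 3 counts per library lay at 0.0925 to 0.223 CPM, and 95% exact intervals and floors cover counting error only, as PCR reads carry no molecular identifiers. The members and the other 14 gene lists were chosen with earlier results of these data known. Named genes are the 9 members, up to 3 genes with the smallest p per list and comparison against IgG, and the 2 closest profiles per member; Ctsz, Jun, Junb, Ets2, Il1a, Mmp11, Mmp1b, Mmp7, the genes at 0, Ptprc and the overlapping genes were named after their values were seen. DESeq2 1.42.0 and 15 other settings were alternatives. Promoters are from RefSeq on GRCm38.p6, and no entry was used for Mmp9 and Mmp19.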

Additional observations from a re-analysis of the deposited data

How the results depend on the processing

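Genes called numbered 112 for anti-B7-H3 against IgG, 229 for anti-PD1 against IgG and 0 for anti-B7-H3 against anti-PD1. They were 394, 660 and 15 with DESeq2, and 44 and 136 against IgG with only the 6 libraries compared. Leaving out 1 library at a time gave 59 to 144, 113 to 262 and 0 to 1. Without IgG control 2 and anti-PD1 3 together, 143 and 234 were called against IgG. Of the 9 members, 2 and 3 were called against IgG. That was 6 and 6 with DESeq2, 0 and 2 with only the 6 libraries compared, 2 to 4 and 2 to 6 without 1 library at a time, and 5 and 5 without IgG control 2 and anti-PD1 3 together. Called genes of the other lists numbered 23 and 29 against IgG and 0 between the antibodies, and 47, 58 and 1 with DESeq2; the first was 9 with only the 6 libraries compared. The cause of these shifts was not tested.

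Replicate numbers did not pair the libraries: deviations of same-numbered libraries correlated at -0.12 to 0.16 (9 pairs), against -0.14 to 0.12 for others (18 pairs). With the replicate number as a block, 64 and 127 genes were called against IgG, 1 and 2 members, and 15 genes of the other lists for anti-B7-H3.

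The call of Mmp12 for anti-B7-H3 was lost with only 6 libraries. That of Mmp13 for anti-B7-H3 was lost there and under the block. That of Mmp19 for anti-PD1 was lost in both and without IgG control 3, anti-PD1 1 or anti-PD1 2. Mmp13 and Mmp12 kept theirs for anti-PD1 in all 16 alternatives. The setting with unscaled library totals was chosen after seeing the data; it moved the median of all tested genes to -0.07 and -0.14 against IgG and ended no member's call. Reversals, in log2 difference and all short of the threshold, were these. Leaving out 1 library at a time gave both signs for Timp2 in anti-PD1 against IgG (-0.17 to 0.06), and, for anti-B7-H3 against anti-PD1, for Mmp8 (-0.03 to 0.30), Mmp14 (-0.20 to 0.19) and Timp3 (-0.95 to 0.48, and 0.39 under the block). Among marker genes it gave both signs in anti-B7-H3 against IgG for Cd8a (-0.18 to 0.29), Cd8b1 (-0.62 to 0.54), Dsp (-3.05 to 1.81), Krt10 (-0.40 to 0.18), Sfn (-0.62 to 0.07) and Vwf (-0.15 to 3.83). In anti-PD1 against IgG it did so for Dsp (-1.87 to 2.69), Kdr (-6.22 to 1.72), Krt10 (-0.15 to 0.28) and Sfn (-0.14 to 0.55). The block gave Cd8b1 0.04 for anti-B7-H3 and Dsp -0.13 for anti-PD1, and unscaled totals gave Krt10 -0.05 for anti-PD1. Without IgG control 2 and anti-PD1 3 together, Cd8a was at -0.14 and Dsp at 1.81 for anti-B7-H3, and Krt10 at -0.30 and Sfn at -0.10 for anti-PD1. The cause was not tested.

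For Timp3 in anti-PD1 against IgG, 1 alternative gave no value. Low counts in the controls limit the precision for Mmp13, Mmp19 and Timp3.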
